A study of Mus musculus with 6 samples.

Results

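The genes described here encode molecular chaperones: heat shock proteins, chaperonin subunits and chaperones of the endoplasmic reticulum (ER), set side by side by the compartment in which each protein works. They were taken by symbol from a list of 41 genes. Of these, 40 were matched to a row among the 33084 genes of the count table, and all 40 passed a filter on low counts that left 19616 genes for testing. The 40 comprise 16 cytosolic members, the 8 subunits of the cytosolic CCT chaperonin, 3 mitochondrial members and 13 ER members. Hspa14, a ribosome-associated HSP70, matched no row and was not analysed here.

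RNA was sequenced from microdissected forebrains of mouse embryos at 15.5 days post coitum, with 3 samples from Dyrk1a<DlxCre/+> embryos (mutants) and 3 from wild-type embryos. In the mutants, Dyrk1a, which encodes a dual-specificity kinase of neuronal development, is inactivated conditionally in the Dlx5 domain, the territory of developing GABAergic neurons, so many cells of the dissected forebrain lie outside the targeted territory. The genotype label includes a + allele, which reads as heterozygous inactivation, with a copy of Dyrk1a left in the targeted cells. The sources used here do not say whether the wild-type embryos carry the Cre driver or a conditional allele. They do not give litters either, so p-values measure only the spread between these samples. In whole tissue of this kind, fewer cells of a type and less RNA per cell cannot be told apart.

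The mutant libraries held between 25360030 and 28339650 gene counts, and the wild-type libraries between 24646616 and 38315004. Dyrk1a averaged 175 ± 14.6 counts-per-million (CPM) in mutants and 177 ± 7.58 CPM in wild-type embryos (SD, n = 3 each; two-sided exact permutation test, p = 0.90, where 0.10 is the smallest p the design allows). Its count covers the whole gene and cannot check the deletion. All 5 listed markers of GABAergic neurons were detected, with summed levels of 255 to 267 CPM in mutants and 236 to 271 CPM in wild-type libraries. On the first principal component (37.4% of variance), replicate 3 of both genotypes stood apart from the other 4 libraries. Summed genes of the embryonic red cell list stood at 437 CPM in mutant replicate 3 and 428 CPM in wild-type replicate 3. The other 4 libraries had 152 to 178 CPM. The list holds Hbb-y, Hba-x, Hbb-bh1, Hba-a1, Hba-a2 and Alas2. Of these 6 genes, replicate 3 was the highest library of its genotype for 3 and the lowest for 3, in each genotype. Medians of the chaperone groups, and values of members named for a difference, are therefore also given without single libraries, below or with the processing alternatives.

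Chaperones bind unfolded or partly folded proteins and release them in cycles that are mostly driven by ATP. In the cytosol, HSP70 proteins receive clients from J-domain proteins, nucleotide exchange factors such as the HSP110 proteins and BAG3 reset them, HSP90 finishes kinases and receptors, and the barrel-shaped CCT complex folds actin and tubulin, which growing neurons make in bulk. Mitochondria import and fold proteins with their own HSP70 and the HSP60 and HSP10 chaperonin, and the ER folds secreted and membrane proteins with BiP, GRP94, the lectins calnexin and calreticulin, and protein disulfide isomerases. Heat shock factors raise the cytosolic and mitochondrial sets through heat shock elements, whereas ATF6 and XBP1 raise the ER set through ER stress response elements during the unfolded protein response.

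The promoters of 7 ER members hold a match to the ER stress response elements named above. These elements are known as the route by which ER chaperone genes are raised. Matches among ER members, and the shares set beside them, are therefore a description and not an independent result. The sites are shown because no member of another compartment with a promoter window had a match. RefSeq promoter windows on GRCm38.p6, from 250 bases before to 50 bases after each start, were matched for 35 of the 41 genes, without Hspa8, Hsp90aa1, Hsp90ab1, Cct4, Hspa9 and Hspa13. Hspa14 had a window. The ER stress response element was searched on both strands as CCAAT and CCACG with 9 bases of any kind (N) between them, and the related element II as ATTGG and CCACG with 1 such base between them. The first was found in 6 of 12 ER members with a window, against 0.137% of 27025 genes, and in 0 of 14 cytosolic, 0 of 7 CCT and 0 of 2 mitochondrial members. Element II was found in 1 of the 12 ER members, Herpud1, against 0.0444% of genes. The sites are printed 5′ to 3′ in the direction of the motif, with the fixed bases in capitals.
Hsp90b1, chr10:86705533-86705551, plus strand: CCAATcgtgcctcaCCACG
Hsp90b1, chr10:86705638-86705656, minus strand: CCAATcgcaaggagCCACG
Hspa5, chr2:34772025-34772043, plus strand: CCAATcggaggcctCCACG
Calr, chr8:84847075-84847093, plus strand: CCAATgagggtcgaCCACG
Canx, chr11:50325800-50325818, minus strand: CCAATcaccacgctCCACG
Dnajc3, chr14:118937827-118937845, plus strand: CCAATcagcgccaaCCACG
Pdia6, chr12:17266491-17266509, plus strand: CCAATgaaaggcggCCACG
Herpud1, chr8:94386377-94386387, plus strand: ATTGGgCCACG

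Heat shock elements were searched on both strands in a stringent form of 3 repeat units, GAA, TTC and GAA, with 2 bases of any kind between neighbouring units. They were found in 2 of 2 mitochondrial members with a window, 1 of 14 cytosolic members, 0 of 7 CCT and 0 of 12 ER members, against 0.662% of genes. Hspd1 and Hspe1 lie head to head on chromosome 1, and the same pair of overlapping matches, on opposite strands, lies in the window of both. The Hsph1 match lies within the 50 bases after a start. A match to these letters is a description of the window and does not show that a factor binds there. Because the form searched is stringent, a window without a match may still hold a heat shock element.
Hspd1 and Hspe1, chr1:55088059-55088071, minus strand: GAAggTTCtaGAA
Hspd1 and Hspe1, chr1:55088064-55088076, plus strand: GAAccTTCcgGAA
Hsph1, chr5:149636288-149636300, plus strand: GAActTTCcaGAA

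The constitutive cytosolic chaperones had the highest levels, and the stress-inducible HSP70 genes had few counts in both genotypes. Per kilobase of merged exons, Hsp90ab1, the constitutive cytosolic HSP90, had the highest level, at 334 CPM per kilobase in mutants and 349 in wild-type embryos. Hspa8, the constitutive HSP70 (HSC70), followed at 293 and 271 CPM per kilobase in mutants and wild-type embryos, and its range over the 6 libraries overlapped that of Hsp90ab1. Cct5 came next at 185 and 174 CPM per kilobase, below both without overlap and above the next gene, Cct2, without overlap. From Cct2 down to Hspd1, in ranks that hold the other CCT subunits, Hsp90aa1, the mitochondrial members and most abundant ER members, each range overlapped that of its neighbour.

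At the low end stood the stress-inducible HSP70 genes Hspa1a and Hspa1b, on chromosome 17 at 34969190 to 34972156 and 34956436 to 34959238 (GRCm38, minus strand). They lay next to each other in level, with overlapping ranges, at 0.230 and 0.218 CPM per kilobase in mutants and 0.135 and 0.206 in wild-type embryos. Together they held 37, 43 and 24 counts in the mutant libraries and 35, 31 and 24 counts in the wild-type libraries. Per kilobase, their sum was 0.172%, 0.188% and 0.101% of Hspa8 in the mutants and 0.132%, 0.184% and 0.0743% in the wild-type libraries. Replicate 3 had the lowest share in each genotype, and the genotypes overlapped. How reads that fit both of these nearly identical paralogs were counted, or whether they were, is uncertain. Their separate and summed levels may therefore be too low. Bag3 and the small heat shock genes Hspb1, Hspb6 and Hspb8 also stayed below 3 CPM per kilobase in every library.

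**Figure D1:**
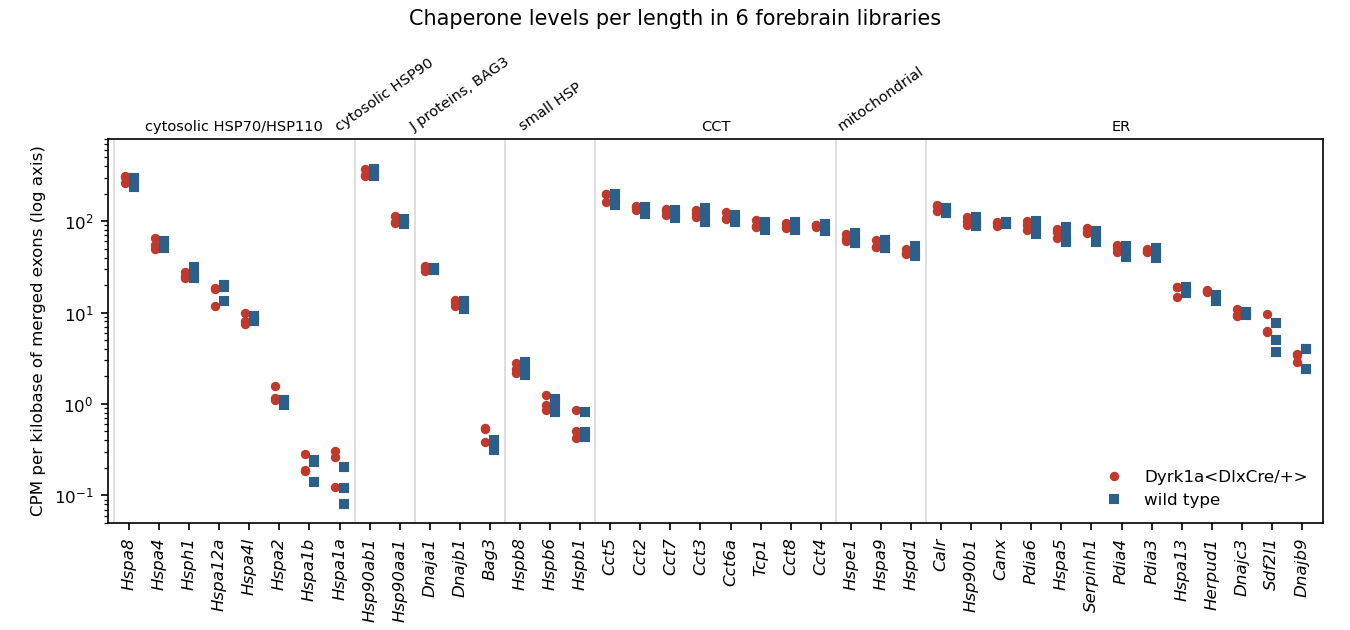
CPM per kilobase of merged exons (log axis) for the 40 chaperone genes, ordered by level within each class, with 1 point per library (circles, Dyrk1a<DlxCre/+>; squares, wild type). Levels span from Hsp90ab1 and Hspa8 at the top to Hspa1a and Hspa1b at the bottom, and the genotypes overlap for nearly every gene.

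The design compares mutant with wild-type forebrains to find what conditional Dyrk1a inactivation in the Dlx5 domain, heterozygous by its label, does to transcript levels. None of the 40 chaperone genes was called. Herpud1 was the only member with all 3 mutant libraries above all 3 wild-type libraries, and 0 members had them all below. Most members lay slightly above the wild-type level, 32 of 40 with a log2 fold change (mutant over wild type) above 0 and a median of 0.06, where 47.5% of all tested genes lay above 0 with a median of -0.0079. By compartment, 11 of 16 cytosolic, 8 of 8 CCT, 2 of 3 mitochondrial and 11 of 13 ER members lay above 0, with medians of 0.04, 0.07, 0.04 and 0.07.

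The test was edgeR's quasi-likelihood test, its p-values adjusted by the Benjamini-Hochberg method. It called 0.0% of the 19616 genes below an adjusted p of 0.05 and 0 members (adjusted p = 0.9999 for each). DESeq2 and limma-voom also called 0 genes. Before adjustment, 376 genes (1.92%) had a p under 0.05 with edgeR, 261 with DESeq2 and 393 with limma-voom. Among them was 1 member, Herpud1, higher in mutants, where 1.19% of all tested genes passed higher and 0.729% lower. That member count ran from 0 to 5 over the alternatives. Separated libraries with mutants higher occurred in 3.19% of all tested genes and with mutants lower in 3.7%, so 1 of 40 members is near the background. The count above 0 depended on single libraries: 23 of 40 were above 0 without mutant replicate 3 (median 0.0168), 21 of 40 without wild-type replicate 2 (median 0.0062) and 33 of 40 without wild-type replicate 3 (median 0.17). Among the 31 members that averaged 20 CPM or more, 25 lay above 0, their log2 fold changes spanned -0.11 to 0.24 and their 95% intervals stayed within -0.56 and 0.47.

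**Figure D2:**
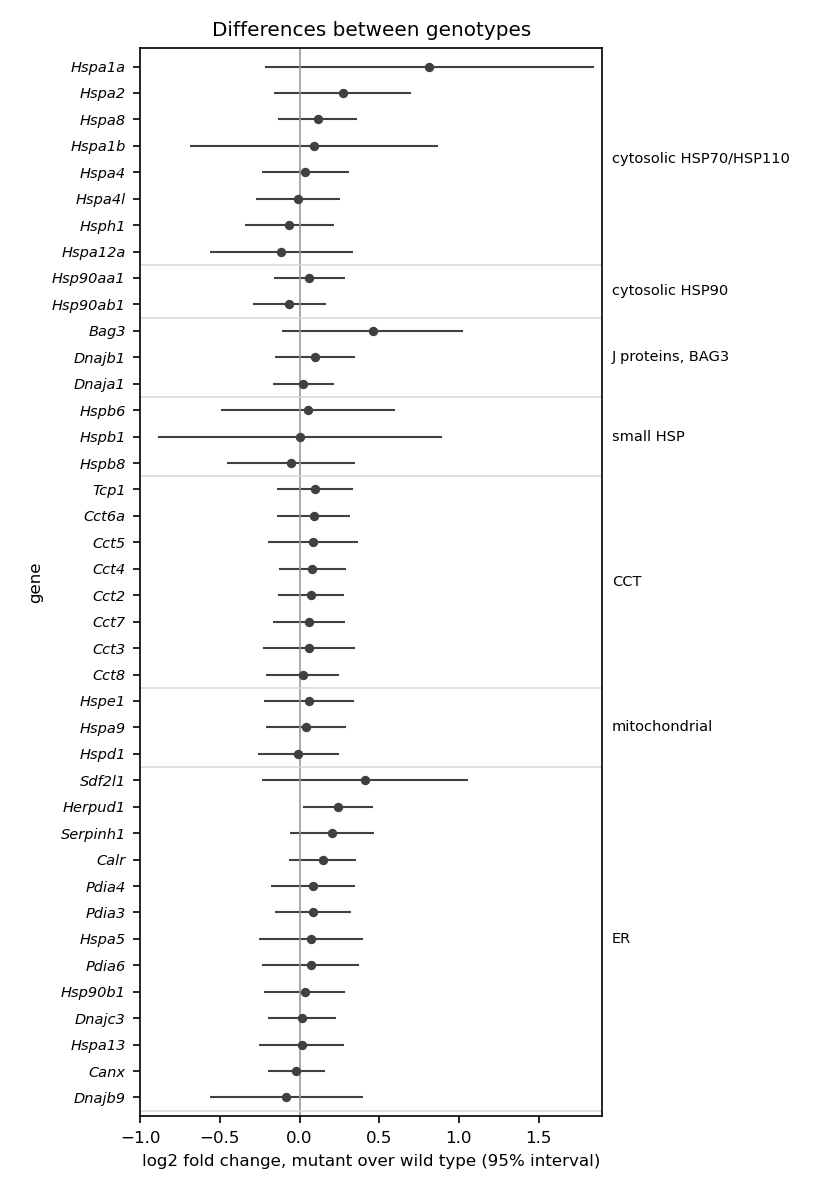
Log2 fold change, mutant over wild type, with 95% intervals from edgeR's quasi-likelihood fit for the 40 chaperone genes, ordered within each class. Among the 40 intervals, that of Herpud1 alone excludes 0, before adjustment, and the low-count genes Hspa1a, Hspb1 and Hspa1b have the widest intervals.

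The smallest unadjusted p of the 40 belonged to an ER member. Herpud1 (ENSMUSG00000031770, chromosome 8, 94386438 to 94395377, plus strand) encodes a membrane protein of ER-associated degradation and is a target of the unfolded protein response. It stood at 32.4, 34.7 and 33.2 CPM in mutants and at 28.2, 26.1 and 30.6 CPM in wild-type embryos. The lowest mutant library was thus above the highest wild-type library. The log2 fold change was 0.24 ± 0.10 (SE; 95% interval 0.02 to 0.46, a change of 1.41% to 37.3%), with an unadjusted p of 0.0356 and an adjusted p of 0.9999 in edgeR's quasi-likelihood test. Taken by replicate number, mutant exceeded wild type by 0.30 log2 units in replicates 1 and 2 and by 0.12 in replicate 3. Over the 18 alternatives the log2 fold change ran from 0.18 to 0.31, with adjusted p from 0.426 to 1.0.

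Serpinh1 encodes HSP47, the ER chaperone of collagens. It had 180, 187 and 203 CPM in mutants and 158, 144 and 192 CPM in wild-type embryos, so the 2 lower mutant libraries fell below wild-type replicate 3. The log2 fold change was 0.20 ± 0.12 (SE, unadjusted p = 0.113, edgeR's quasi-likelihood test). It was 0.16 without mutant replicate 3, 0.12 without wild-type replicate 2 and 0.34 without wild-type replicate 3. Markers of collagen-making mural cells and meningeal fibroblasts summed to 513 to 552 CPM in mutants and 476 to 621 CPM in wild-type libraries, and 2 of these 6 markers lay above 0. Their part in the Serpinh1 value was not tested.

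Calr, encoding the lectin chaperone calreticulin, was the ER member with the highest level per length. It had 282, 331 and 318 CPM in mutants and 275, 266 and 301 CPM in wild-type embryos, with mutant replicate 1 inside the wild-type range. Its log2 fold change was 0.15 ± 0.09 (SE). Its membrane-bound partner calnexin, from Canx, was at -0.02 ± 0.08, with 409, 375 and 417 CPM in mutants and 417, 398 and 403 CPM in wild-type embryos.

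Of the other ER members, Hspa5, which encodes BiP, the ER HSP70 and sensor of unfolded protein load, had a log2 fold change of 0.07 ± 0.14 (SE), and Hsp90b1, which encodes GRP94, the ER HSP90, had 0.03 ± 0.11. The disulfide isomerase genes Pdia3, Pdia4 and Pdia6 had 0.08 ± 0.11, 0.08 ± 0.12 and 0.07 ± 0.13. The J-protein genes Dnajb9 and Dnajc3, partners of BiP, had -0.08 ± 0.21 and 0.02 ± 0.09, and Hspa13, an ER-associated HSP70, had 0.01 ± 0.12. Sdf2l1, part of an ER chaperone complex with BiP, had the widest spread of the ER group, at 6.96, 6.77 and 10.7 CPM in mutants and 4.14, 5.55 and 8.62 CPM in wild-type embryos. Its genotypes overlapped, with a log2 fold change of 0.41 ± 0.28, and replicate 3 was the highest library in each. The value was 0.17 without mutant replicate 3, 0.19 without wild-type replicate 1 and 0.77 without wild-type replicate 3. The library values of Sdf2l1, Canx and Hspa12a are given although the naming rule did not select them, and were chosen after they had been seen.

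Medians of the ER members with and without a printed promoter site lay close together, and their difference was not tested. A window without a match to these letters may still hold an element. The 7 ER members with either element had a median log2 fold change of 0.07, 6 of 7 above 0, and the 5 with a window and no match had 0.08, 4 of 5 above 0.

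**Figure D3:**
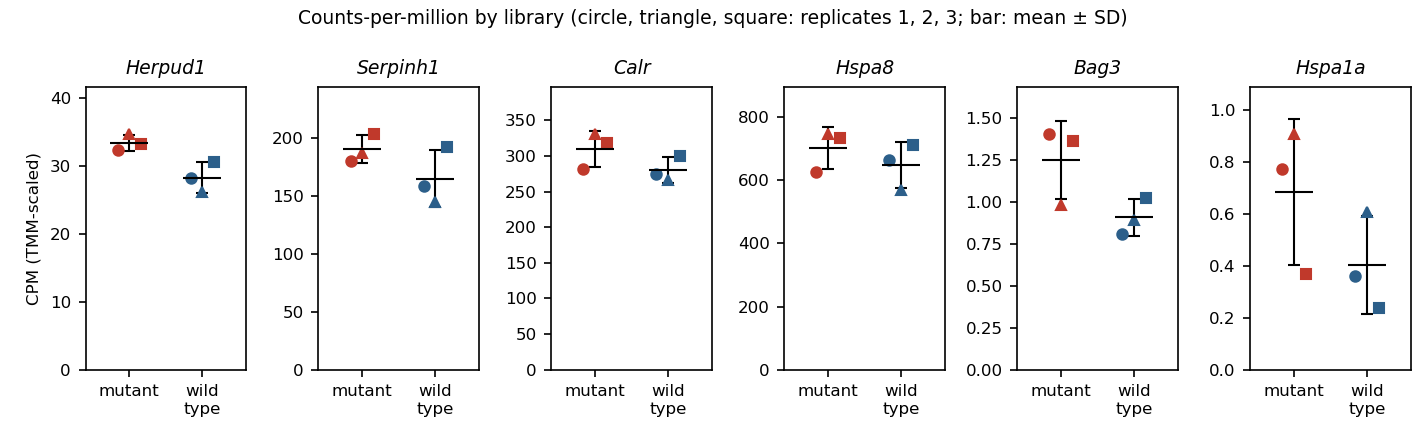
CPM in each library for 6 members (left, mutants; right, wild type; circle, triangle and square mark replicates 1, 2 and 3; bars give the mean ± SD, n = 3 each). Of the 6, Herpud1 alone has mutant libraries between 32.4 and 34.7 CPM and wild-type libraries between 26.1 and 30.6 CPM without overlap. The 6 are a selection, all with a log2 fold change above 0, whereas 8 of the 40 members lie below 0.

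Among cytosolic HSP70 genes, Hspa1a had the largest log2 fold change and the largest error. It had 0.773, 0.906 and 0.369 CPM in mutants and 0.360, 0.608 and 0.237 CPM in wild-type embryos. These levels rest on 22, 23 and 10 counts in mutants and 12, 15 and 9 counts in wild-type libraries, and the groups overlapped. The log2 fold change was 0.82 ± 0.46 (SE), with a 95% interval of -0.22 to 1.85, while that of its copy Hspa1b was 0.09 ± 0.34. Hspa2, a germline-enriched HSP70 at low level here, had 2.92, 4.13 and 3.10 CPM in mutants and 2.61, 2.84 and 2.95 CPM in wild-type embryos, overlapping through mutant replicate 1. Its log2 fold change was 0.27 ± 0.19.

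The abundant HSP70 genes were close to the wild-type level. Hspa8 had 624, 746 and 733 CPM in mutants and 664, 568 and 712 CPM in wild-type embryos. Mutant replicate 1 fell inside the wild-type range, and the log2 fold change was 0.11 ± 0.11 (SE). The HSP110 exchange factors Hspa4, Hspa4l and Hsph1 had log2 fold changes of 0.04 ± 0.12, -0.01 ± 0.12 and -0.07 ± 0.12. Hspa12a, a divergent HSP70 that is abundant in brain, had -0.11 ± 0.20 and differed from most members in its library pattern, with its lowest levels in replicate 3 of both genotypes, at 74.6 CPM in the mutant and 86.3 CPM in the wild type, against 117 to 127 CPM in the other 4 libraries.

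The cytosolic HSP90 genes differed by less than their error and in opposite directions. Hsp90aa1, the inducible form, had 333, 321 and 387 CPM in mutants and 326, 314 and 357 CPM in wild-type embryos, a log2 fold change of 0.06 ± 0.10 (SE). Hsp90ab1 had 816, 927 and 783 CPM in mutants and 789, 927 and 924 CPM in wild-type embryos, a log2 fold change of -0.06 ± 0.10. Per kilobase, Hsp90ab1 was 3.29, 3.88 and 2.72 times Hsp90aa1 in mutants and 3.24, 3.96 and 3.47 times in wild-type embryos. Replicate 2 had the highest ratio in each genotype.

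Of the J proteins that load HSP70, Dnaja1 had 178, 165 and 188 CPM in mutants and 169, 175 and 179 CPM in wild-type embryos. Dnajb1, a main target of heat shock factors, had 37.5, 43.6 and 42.3 CPM in mutants and 36.6, 35.4 and 43.4 CPM in wild-type embryos. Both overlapped, with log2 fold changes of 0.02 ± 0.08 and 0.10 ± 0.11 (SE). Bag3, which couples HSP70 to small heat shock proteins in selective autophagy, had 1.41, 0.984 and 1.36 CPM in mutants and 0.809, 0.892 and 1.03 CPM in wild-type embryos. Mutant replicates 1 and 3 stood above every wild-type library and mutant replicate 2 did not. Its log2 fold change was 0.46 ± 0.25, from 22 to 40 counts per library.

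The small heat shock genes, whose products hold unfolded proteins without ATP, were low and overlapped. Hspb8, the partner of BAG3, had 4.01, 4.37 and 5.05 CPM in mutants and 5.24, 3.81 and 4.85 CPM in wild-type embryos. Hspb6 had 1.34, 1.69 and 1.18 CPM in mutants and 1.11, 1.42 and 1.53 CPM in wild-type embryos. The log2 fold changes were -0.06 ± 0.18 for Hspb8, 0.05 ± 0.24 for Hspb6 and 0.0034 ± 0.39 for Hspb1 (SE), so for Hspb1 a change between -46.0% and 86.1% was within the 95% interval. The intervals were narrower for Hspb6, at -29.1% to 51.2%, and for Hspb8, at -27.2% to 27.2%.

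The CCT subunits, which occupy fixed places in a ring of 8 different proteins, shifted in the same direction in replicate 3 of each genotype and kept part of their order. Their log2 fold changes spanned 0.02 to 0.10: Tcp1, the alpha subunit gene, had 0.10 ± 0.11 (SE), Cct2 0.07 ± 0.09, Cct3 0.06 ± 0.13 and Cct4 0.08 ± 0.09. Cct5 had 0.08 ± 0.12, Cct6a 0.09 ± 0.10, Cct7 0.06 ± 0.10 and Cct8 0.02 ± 0.10. All 8 lay above 0 and all 95% intervals included 0, the highest reaching 0.37 for Cct5, or 28.8% higher. Without mutant replicate 3 the median of the 8 was 0.0234, without wild-type replicate 2 it was -0.0056, and without wild-type replicate 3 it was 0.17.

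Cct5 had 302, 364 and 363 CPM in mutants and 322, 277 and 370 CPM in wild-type embryos. Tcp1 had 250, 255 and 293 CPM in mutants and 238, 229 and 278 CPM in wild-type embryos, and Cct6a had 263, 261 and 307 CPM in mutants and 255, 241 and 285 CPM in wild-type embryos. In each of the 3, the genotypes overlapped and replicate 3 was above replicate 1. Per kilobase, Cct5 ranked 1, Cct2 ranked 2 and Cct6a ranked 5 in all 6 libraries. Cct3 and Cct7 held ranks 3 and 4 between them, and Tcp1, Cct4 and Cct8 exchanged ranks 6 to 8. The ratio of the highest to the lowest subunit was 1.95 to 2.29 in mutants and 1.87 to 2.22 in wild-type libraries. Relative to the wild-type mean, the 8 subunits of wild-type replicate 2 all lay below 0, between -0.24 and -0.06, and those of wild-type replicate 3 all lay above, between 0.10 and 0.25. In mutant replicate 3 they lay between 0.12 and 0.24.

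The mitochondrial members differed between genotypes by less than their errors. Hspa9, the mitochondrial HSP70 (mortalin), had 161, 160 and 188 CPM in mutants and 153, 154 and 188 CPM in wild-type embryos, a log2 fold change of 0.04 ± 0.11 (SE). Hspe1, which encodes HSP10, had 49.4, 47.2 and 56.6 CPM in mutants and 44.2, 45.3 and 57.3 CPM in wild-type embryos, at 0.06 ± 0.12, and Hspd1, which encodes HSP60, was at -0.01 ± 0.11. Replicate 3 was the highest library of its genotype for all 3 genes. Hspd1 (chromosome 1, 55077835 to 55088243, minus strand) and Hspe1 (55088132 to 55091307, plus strand) overlap at their starts, and per kilobase Hspe1 was 1.46, 1.35 and 1.48 times Hspd1 in mutants and 1.32, 1.40 and 1.38 times in wild-type embryos.

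**Figure D4:**
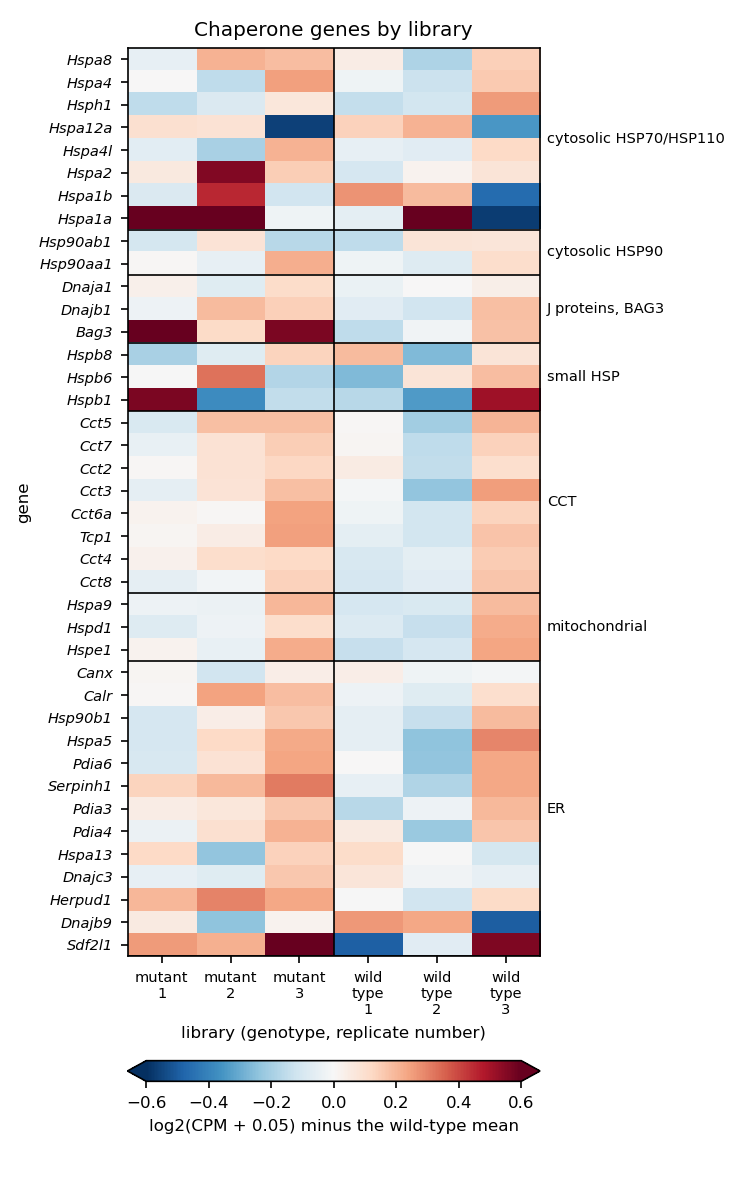
Log2(CPM + 0.05) minus the wild-type mean for each chaperone gene (rows, by class) in each library (columns, mutants left). The replicate 3 columns of both genotypes are raised for most CCT, mitochondrial and ER genes, the wild-type replicate 2 column is lowered, and low-count genes such as Hspa1a and Hspb1 scatter.

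Most chaperone genes were higher in replicate 3 of each genotype. Replicate 3 was the highest mutant library for 26 of 40 members, where this held for 36.6% of all tested genes, and the highest wild-type library for 31 of 40 members, against 39.3% of all tested genes. The background was higher among genes averaging 20 CPM or more, at 3705 of 8700 in mutants and 4086 of 8700 in wild-type embryos. Of the 31 members at that level, it held for 24 and 26. By compartment, a difference that was not tested, mutant replicate 3 was highest for 7 of 8 CCT, 3 of 3 mitochondrial, 10 of 13 ER and 6 of 16 cytosolic members, and wild-type replicate 3 for 8 of 8, 3 of 3, 9 of 13 and 11 of 16. The cytosolic share in mutants was near that of all tested genes. The median difference of replicate 3 from replicates 1 and 2 was 0.15 log2 units in mutants and 0.24 in wild-type embryos for CCT, 0.23 and 0.33 for mitochondrial, 0.18 and 0.25 for ER, and 0.08 and 0.17 for cytosolic members. Over all tested genes it was 0.0059 in mutants and 0.0051 in wild-type embryos, and over those averaging 20 CPM or more 0.033 and 0.034.

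By library, relative to the wild-type mean, the ER median was 0.01, 0.09 and 0.18 in mutants and -0.0021, -0.07 and 0.17 in wild-type embryos. The CCT median was -0.02, 0.08 and 0.16 in mutants and -0.02, -0.13 and 0.16 in wild-type embryos. Wild-type replicate 2 was thus the lowest library for both sets. The summed level of the 40 members was 6876, 7322.5 and 7681 CPM in mutants and 6859, 6581 and 7712 CPM in wild-type embryos, or 7293 ± 403 and 7050.5 ± 589 CPM (SD, n = 3 each), less than 1 SD apart.

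Cell type markers differed in the same libraries. Proliferating cell markers (Mki67, Top2a, Ccnb1, Cdk1 and Pcna) summed to 804, 819 and 1367 CPM in mutants and 802, 741 and 1294 CPM in wild-type embryos, with replicate 3 highest for all 5 genes in each genotype. Radial glia and progenitor markers summed to 705, 780 and 972 CPM in mutants and 639, 668 and 916 CPM in wild-type embryos. Postmitotic neuron markers ran the other way, at 3902, 3707 and 3321 CPM in mutants and 3903, 3916 and 3302 CPM in wild-type embryos. These markers also differed in direction by genotype, with 0 called. The median log2 fold change was 0.08 for proliferating cells (5 of 5 above 0) and 0.20 for radial glia and progenitors (4 of 5). For postmitotic neurons it was -0.10 (1 of 5), where 47.5% of all tested genes lay above 0. The part of these markers in the chaperone levels was not tested. Between genotypes, the chaperone medians within replicates 1 and 2 and within replicate 3 were 0.10 and -0.0072 for CCT, 0.11 and 0.08 for ER, 0.03 and 0.06 for cytosolic, and 0.06 and -0.02 for mitochondrial members. Taken singly, replicate 1 gave 0.0016 for CCT, with 4 of 8 members above 0, and -0.028 for ER, with 6 of 13 above 0, and replicate 2 gave 0.20 for CCT and 0.28 for ER. Only the cytosolic median was thus above 0 in each of the 3 replicate numbers, with 10, 11 and 10 of 16 members above 0. Replicate numbers could not be taken to pair the embryos, so these values depend on how the libraries are matched.

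**Figure D5:**
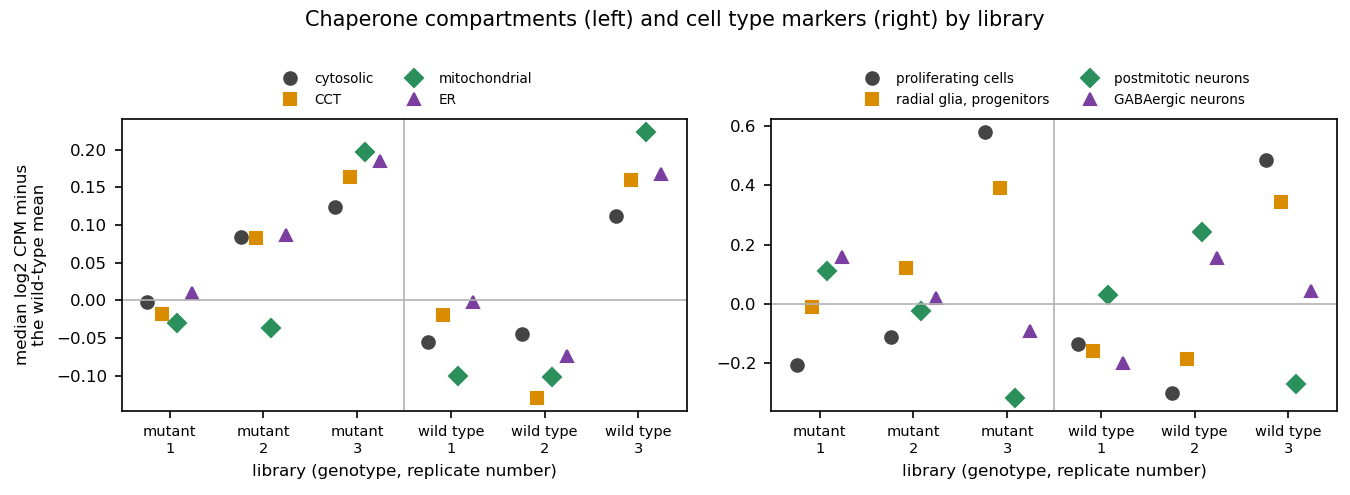
Median log2 CPM minus the wild-type mean by library for the 4 chaperone compartments (left panel) and for 4 cell type marker lists (right panel, wider y axis), mutants left of wild type. In replicate 3 of both genotypes all 4 compartments lie above 0.1, proliferating cell and progenitor markers are high and postmitotic neuron markers low.

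Genes that work with the chaperones were compared from lists written out alongside the members, and none was called by edgeR's quasi-likelihood test (adjusted p = 0.9999 for each gene named). For comparison with the counts in these lists, 47.5% of all tested genes had a log2 fold change above 0. Separated libraries occurred in 3.19% with mutants higher and in 3.7% with mutants lower. Of 26 heat shock factor and cytosolic co-chaperone genes, 13 lay above 0, and the median log2 fold change was 0.02. The smallest p belonged to Hspbp1, an exchange factor of HSP70, with 40.0, 49.1 and 37.4 CPM in mutants and 33.1, 35.4 and 34.97 CPM in wild-type embryos, separated groups and a log2 fold change of 0.29 ± 0.12 (SE). Stub1, the ubiquitin ligase CHIP that tags HSP70 clients, had 0.16 ± 0.09, and Bag1, another HSP70 exchange factor, had 0.12 ± 0.10.

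Of 14 prefoldin and CCT cofactor genes, 10 lay above 0, with a median of 0.08. The tubulin cofactor genes Tbcc and Tbcb had 0.23 ± 0.11 and 0.15 ± 0.11 (SE), and Pfdn2, a subunit of the prefoldin that hands actin and tubulin to CCT, had -0.14 ± 0.10. Tbcc was separated upward and Pfdn2 and Pdcl3 downward, the last named because it was separated.

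Of 14 mitochondrial co-chaperone and protease genes, 9 lay above 0, with a median of 0.04. Hscb, the J protein of iron-sulfur cluster transfer, had 4.04, 3.82 and 3.69 CPM in mutants and 2.70, 2.59 and 3.43 CPM in wild-type embryos, separated groups and 0.40 ± 0.17 (SE). Clpx, an unfoldase subunit, and Atf5, a transcription factor of the mitochondrial stress response, had 0.14 ± 0.10 and 0.20 ± 0.17.

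Of 26 genes of the unfolded protein response and ER quality control, 15 lay above 0, with a median of 0.02 and 0 separated. The smallest p belonged to Creld2, an ER stress-induced ER protein, at 0.21 ± 0.13 (SE), and to the transcription factor genes Ddit3 (CHOP) and Atf4, at 0.20 ± 0.14 and 0.18 ± 0.12. Atf4 had 86.4, 109 and 108 CPM in mutants and 89.7, 78.03 and 99.8 CPM in wild-type embryos, which overlapped.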

How the data were processed

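The authors deposited raw read counts per Ensembl gene, 1 column per library with no normalization. Stranded, single-end libraries were made, and the labels name both ribosomal RNA depletion and polyA RNA. Reads were demultiplexed with bcl2fastq 2.17.1.14, per the submitters' processing notes. Alignment used HISAT2 against GRCm38 (release 93), SAMtools 1.9 handled the alignments and HTSeq 0.9.1 made the counts, per the same notes and the series' design text from the authors. Strand and overlap modes of HTSeq, and the version of HISAT2, were not stated in these sources. Counts of genes that overlap others are therefore uncertain. Among members these are Tcp1, Cct6a, Cct7, Cct8, Hsp90b1, Hspa9, Hspa12a, Hspb6, Dnaja1, Pdia3, Hspd1 and Hspe1.

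Symbols, coordinates and merged exon lengths came from GENCODE M21 on GRCm38, and promoter sequences from RefSeq (GRCm38.p6). Genes were kept by filterByExpr (minimum count 10, minimum total 15) and scaled by TMM. Genotypes were compared with edgeR's quasi-likelihood test (edgeR 4.0.16, limma 3.58.1, DESeq2 1.42.0, R 4.3.3), mutant against wild type, without covariate, adjusted by Benjamini-Hochberg over 19616 genes at a threshold of 0.05. Log2 CPM per library used a prior count of 2. On simulated counts of the same comparison (19375 genes tested, independent genes, trended dispersions), 87% of 2-fold and 46% of 1.5-fold changes were recovered. Changes were placed only in genes averaging above 1 CPM, which leaves out Hspa1a, Hspa1b and Hspb1. No replicate 3 difference was simulated, so these shares may be too high for the real libraries. Figures were drawn with matplotlib 3.10.9.

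The members and lists were chosen with earlier results of these data known. Library values are printed for members with separated libraries, an unadjusted p under 0.05, the 2 smallest p of their class or the highest level per length of their class, and, for other lists, the 3 genes with the smallest p are named. A check of the tissue by another marker list is not reported here.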

Additional observations from a re-analysis of the deposited data

How the results depend on the processing

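With 3 libraries a genotype, mainly large changes of single genes were detectable, and counts of at most 40 per library limit Hspa1a, Hspa1b, Hspb1 and Bag3. Under 18 alternatives 0 members were called, and 13 of 40 kept their sign in all that tested them. Replicates 1 and 2 only called 3 genes, none a member. The number of genes at an unadjusted p under 0.05 was 376 in the reported fit. It was 311 with at least 1 CPM in 3 libraries, 587 without a filter, 845 with a term for replicate 3, 1544 with replicates 1 and 2 only, 1909 by limma-voom with sample weights and 179 to 1060 with a library left out. Among members, 5 were at such a p with sample weights (Bag3, Herpud1, Hspa1a, Sdf2l1 and Serpinh1), 4 with the replicate 3 term (Herpud1, Hspa1a, Sdf2l1 and Serpinh1), and 3 (Herpud1, Sdf2l1 and Serpinh1) with replicates 1 and 2 only and without wild-type replicate 3. The unadjusted p of Herpud1 in edgeR's quasi-likelihood test was 0.0503 without a filter and 0.0196 to 0.13 with a library left out, under 0.05 only without wild-type replicate 3 among those 6 fits.

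Replicate numbers could not be taken to pair the embryos: same-numbered libraries correlated at 0.241, 0.0711 and 0.3554 in their deviations, and mutant replicate 1 correlated more with wild-type replicate 2, at 0.3475. A replicate block called 0 genes and 0 members, left 765 genes and 3 members (Herpud1, Sdf2l1 and Serpinh1) at an unadjusted p under 0.05, or 1050 genes and 4 members, with Calr added, with GC content and length trends also removed, and gave medians of 0.0679 for all members, 0.08 for CCT and 0.08 for ER.

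Leaving out a library gave medians of 0.0062 to 0.1671 for all members, 0.0235 to 0.1247 for cytosolic, -0.0056 to 0.1686 for CCT, -0.0376 to 0.1518 for mitochondrial and 0.0001 to 0.1968 for ER members, each highest without wild-type replicate 3. The following log2 fold changes reversed sign, and the cause was not tested. With at least 1 CPM in 3 libraries, Hspa4l was at 0.0032 and Hspd1 at 0.0051, and by limma-voom Hspb1 was at -0.0071. With sample weights, Hspa1b was at -0.1607, Hsp90ab1 at 0.0157, Hspd1 at 0.0296, Hspa13 at -0.0290 and Dnajc3 at -0.0686. With replicates 1 and 2 only, Hspa1b was at -0.0343, Hsph1 at 0.0140, Hsp90ab1 at 0.0286, Hspd1 at 0.0632, Hspa13 at -0.0972 and Dnajc3 at -0.0801. With GC and length trends removed, Hspa4l was at 0.0860, Hspb1 at -0.1845, Hspb6 at -0.0031, Hspd1 at 0.0058 and Canx at 0.0396. With the replicate block as well, Hspa1b was at -0.0103, Hspa4l at 0.0923, Hspb1 at -0.1695, Hspb6 at -0.0079, Hspd1 at 0.0129, Dnajb9 at 0.0013 and Canx at 0.0402.

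Leaving out a library in turn, the ranges that crossed 0 were -0.0479 to 0.0252 for Canx, -0.0006 to 0.1273 for Cct2, -0.0517 to 0.2019 for Cct3, -0.0139 to 0.2009 for Cct5, -0.0105 to 0.1412 for Cct7, -0.0389 to 0.1171 for Cct8, -0.0200 to 0.0701 for Dnaja1, -0.2878 to 0.0473 for Dnajb9 and -0.0578 to 0.0594 for Dnajc3. They were -0.0214 to 0.1234 for Hsp90aa1, -0.0356 to 0.1409 for Hsp90b1, -0.2598 to 0.0760 for Hspa12a, -0.0468 to 0.1265 for Hspa13, -0.1339 to 0.2558 for Hspa1b, -0.0754 to 0.1260 for Hspa4, -0.1283 to 0.0763 for Hspa4l, -0.0416 to 0.2420 for Hspa5 and -0.0376 to 0.1518 for Hspa9. They were -0.3552 to 0.3582 for Hspb1, -0.1031 to 0.1667 for Hspb6, -0.1728 to 0.0408 for Hspb8, -0.0760 to 0.1215 for Hspd1, -0.0187 to 0.1991 for Hspe1, -0.1380 to 0.0826 for Hsph1, -0.0184 to 0.1789 for Pdia4 and -0.0397 to 0.2026 for Pdia6. Of the members that kept their sign, Sdf2l1 ran from 0.1662 to 0.7654, Serpinh1 from 0.1175 to 0.3381, Hspa2 from 0.1032 to 0.3733, Hspa8 from 0.0264 to 0.1954, Hspa1a from 0.5313 to 1.1904, Pdia3 from 0.0047 to 0.1968, Tcp1 from 0.0252 to 0.1964, Cct4 from 0.0325 to 0.1696, Cct6a from 0.0119 to 0.1675, Dnajb1 from 0.0414 to 0.2022, Hsp90ab1 from -0.1381 to -0.0102, Calr from 0.0977 to 0.216, Bag3 from 0.3709 to 0.6003 and Herpud1 from 0.1848 to 0.3072.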
